A study of Mus musculus with 12 samples.

Results

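Livers of mice that received resmetirom on a high-fat diet were compared with livers of chow-fed control mice, with 3 livers on each side of 12 in the whole series. All 13988 genes that passed a low-count filter were tested, of 28036 genes in the table. The mice were C57BL/6J, an inbred laboratory strain. Resmetirom mice were fed the high-fat diet that models metabolic dysfunction-associated steatohepatitis (MASH, in which liver fat comes with inflammation) for 8 weeks, and then took resmetirom by mouth at 3 mg/kg during 4 further weeks. MASH mice had the same diet and control mice had normal chow, and both took only the vehicle, 0.5% CMC-Na, over those weeks. Diet and drug therefore differ together between resmetirom and control livers, and their shares in a difference cannot be told apart in that contrast. The MASH livers, 3 in number, are given beside it. The last 3 livers are from mice on the same high-fat diet that took Eleutheroside E, a plant lignan glycoside, at 100 mg/kg over the 4 weeks; called EE below, they enter only the shared fit. Sex, age and time of day of sampling are not in the labels, and each library is taken as 1 mouse, although the labels do not say so, so p-values measure the spread between these samples, which may be technical.

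Resmetirom is a liver-directed agonist of thyroid hormone receptor beta, the main thyroid hormone receptor of hepatocytes. The receptor sits on DNA as a partner of the retinoid X receptor, typically at a pair of AGGTCA half-sites in the same direction spaced by 4 bases (DR4), and recruits coactivators when a hormone is bound and corepressors when none is. In liver, thyroid hormone is known to raise the deiodinase Dio1, to speed up cholesterol and bile acid turnover and to lower lipoprotein cholesterol in blood.

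Library totals lay between 17297864 and 21793311 counts. Control 1 stood apart from every other library, with 35.4% of its counts in mitochondrially encoded genes, against 2.40% to 4.38% elsewhere. Resmetirom 2 had 35.7% of its counts in genes of the major urinary proteins (Mup, small pheromone carriers made in male liver), against 3.33% to 15.99% elsewhere. Control 1 and resmetirom 2 had the lowest scaling factors, 0.5085 and 0.66317, and resmetirom 1 had the highest, 1.41. Levels below are counts scaled to library size (CPM) after that scaling, and the comparison is given with and without control 1. All 15 hepatocyte markers were detected in the 6 livers, and their summed level was 88130 to 136400 CPM in resmetirom livers and 119800 to 187800 CPM in control livers.

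With all 12 libraries in 1 fit, 442 genes differed between resmetirom and control livers at an adjusted p below 0.05, which is 3.16% of the genes tested. Of these 197 were higher with resmetirom (1.41%) and 245 were lower (1.75%), and 358 differed by 2-fold or more. In 439 of the 442 genes the 3 resmetirom and 3 control livers did not overlap, whereas 20.8% of all tested genes had no overlap. Without control 1, 684 of 14299 genes were called (4.78%), 273 higher (1.91%) and 411 lower (2.87%). The count rests on the spread that all 4 groups share, although the groups were not equally spread. Livers of a group correlated on log2 CPM at 0.9029 to 0.9482 (resmetirom), 0.8924 to 0.9843 (control), 0.9792 to 0.9825 (MASH) and 0.9783 to 0.9797 (EE). With only the 2 compared groups in the fit, 5 genes were called (1568 at an unadjusted p below 0.05). Without control 1 as well, 2 were called (1915 at an unadjusted p below 0.05). Leaving out 1 library at a time gave 127 to 684 called genes, and the count moved by over 1.5 times without any one library other than resmetirom 1 (463) or resmetirom 3 (385).

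**Figure D1:**
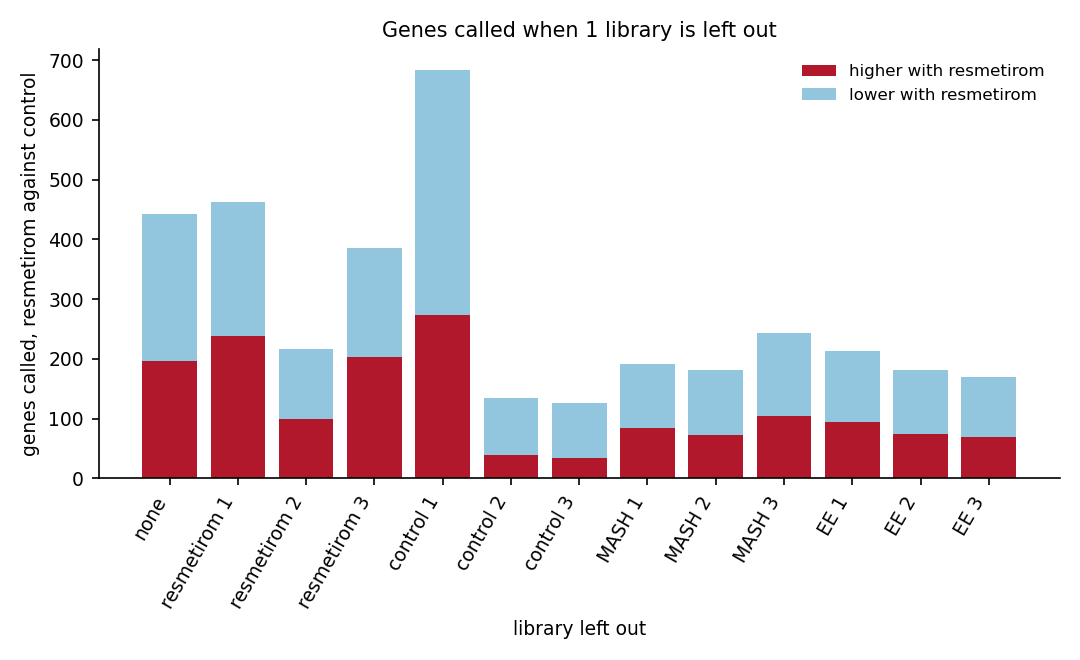
Genes called between resmetirom and control livers (y axis, number of genes) with no library left out and with each of the 12 libraries left out in turn (x axis); the lower part of a bar is genes higher with resmetirom and the upper part genes lower. The count is 442 with no library left out, 684 without control 1, 134 without control 2 and 127 without control 3.

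Of the 442 genes, 78 kept their call in all 12 fits that left out a library, 24 of them higher and 54 lower with resmetirom, and the genes of the next paragraphs are taken first from these. For other called genes, the number of these 12 fits in which the call was lost is given. Ntrk2, the receptor for brain-derived neurotrophic factor, was at 49.8, 66.5 and 66.7 CPM in resmetirom livers, at 0.993, 2.38 and 3.75 CPM in MASH livers and at 0.603, 1.99 and 1.37 CPM in control livers. Its log2 fold change against control was 5.44 ± 0.51 (SE, adjusted p = 0.000853), and against MASH 4.67 ± 0.48 (SE, adjusted p = 0.00452). All 3 resmetirom livers were close together and far above all 6 others, and Ntrk2 was also called with only the 2 compared groups in the fit, with and without control 1. The 5 genes called with only those 2 groups were Ntrk2, Slc13a5, the unnamed clone gene B430219N15Rik and a pair of genes with no symbol. Slc13a5, which carries citrate into hepatocytes, had 18.5, 11.7 and 7.95 CPM in resmetirom livers and 0.804, 0.761 and 0.812 CPM in control livers. For Slc13a5, the log2 fold change was 4.00 ± 0.76 (SE, adjusted p = 0.0231), and it was picked after its values were seen. Its call was lost without control 2 or control 3.

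Dio1, the deiodinase that makes active thyroid hormone in liver and a standard readout of thyroid hormone action there, was at 275, 702 and 491 CPM in resmetirom livers, 119, 218 and 188 CPM in MASH livers and 104, 93.6 and 75.3 CPM in control livers. The log2 fold change against control was 2.43 ± 0.35 (SE, adjusted p = 0.0104), and 2.53 (adjusted p = 0.0163) without control 1. Every resmetirom liver was above every MASH and every control liver, but Dio1 was not called against MASH. Tff3, a secreted trefoil peptide known from mucosal surfaces, had 43.3, 144 and 31.6 CPM in resmetirom livers, 3.97, 3.18 and 0.703 CPM in MASH livers and 1.00, 1.35 and 1.68 CPM in control livers. For Tff3, the log2 fold change against control was 5.72 ± 0.75 (SE, adjusted p = 0.00857). Slc22a7, an organic anion transporter, had 139.9, 869 and 448 CPM in resmetirom livers and 25.2, 39.4 and 22.9 CPM in control livers. For Slc22a7, the log2 fold change was 4.05 ± 0.54 (SE, adjusted p = 0.00862). Resmetirom 2 was the highest of the 3 for Dio1, Tff3 and Slc22a7, but the lowest resmetirom liver was still above all controls. Wfdc16, a small protein of the whey acidic protein family, had 6.43, 13.4 and 3.43 CPM in resmetirom livers and none to 0.102 CPM in control livers, and was listed at 0 in all 3 MASH livers.

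The gene of the receptor, Thrb, had 9.51, 8.62 and 16.2 CPM in resmetirom livers and 13.4, 23.1 and 18.7 CPM in control livers, and its log2 fold change of -0.69 ± 0.30 (SE, adjusted p = 0.198) did not pass the test.

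**Figure D2:**
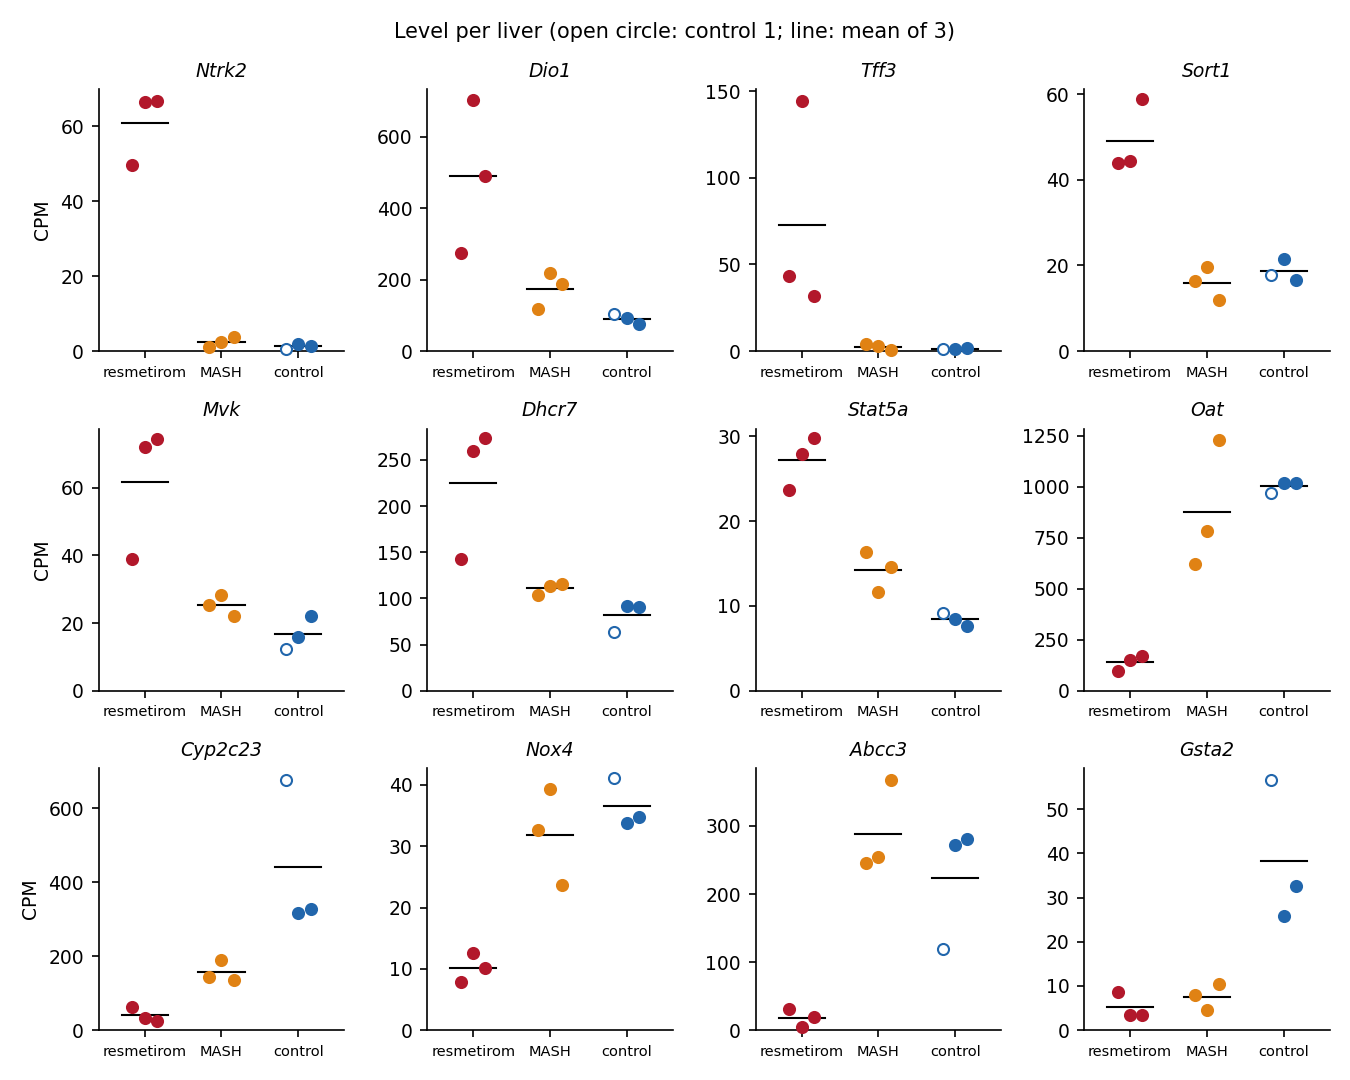
CPM (y axis, linear from 0) of 12 genes in each resmetirom, MASH and control liver (x axis); points are single livers, the open circle is control 1 and the line is the mean of 3. The 3 resmetirom livers lie above all control livers for the first 7 genes and below all control livers for the last 5.

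Promoter sequences are shown for named genes whose calls held without any one library and whose start region holds the half-site of the receptor. They are also shown for Dio1 and Ntrk2, whose window holds none. Where a gene has several RefSeq starts, a single window that holds the half-site is shown. The other Etnppl window, for example, holds none. Windows run from 250 bases before to 50 bases after a RefSeq start (build GRCm38.p6), 5′ to 3′ on the strand of the gene, and capitals mark AGGTCA on either strand.
Dio1: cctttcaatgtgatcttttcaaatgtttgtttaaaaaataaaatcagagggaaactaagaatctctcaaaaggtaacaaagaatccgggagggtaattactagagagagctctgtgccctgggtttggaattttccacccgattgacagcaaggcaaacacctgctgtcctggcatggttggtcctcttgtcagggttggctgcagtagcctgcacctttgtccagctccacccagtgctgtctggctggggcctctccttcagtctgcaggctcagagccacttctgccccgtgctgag
Ntrk2: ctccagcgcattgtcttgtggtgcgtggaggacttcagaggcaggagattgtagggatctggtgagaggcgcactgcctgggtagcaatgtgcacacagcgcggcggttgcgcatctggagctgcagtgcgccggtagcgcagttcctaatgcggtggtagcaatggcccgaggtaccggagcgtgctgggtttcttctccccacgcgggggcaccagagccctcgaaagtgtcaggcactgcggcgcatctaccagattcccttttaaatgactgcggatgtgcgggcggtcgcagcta
Dhcr7: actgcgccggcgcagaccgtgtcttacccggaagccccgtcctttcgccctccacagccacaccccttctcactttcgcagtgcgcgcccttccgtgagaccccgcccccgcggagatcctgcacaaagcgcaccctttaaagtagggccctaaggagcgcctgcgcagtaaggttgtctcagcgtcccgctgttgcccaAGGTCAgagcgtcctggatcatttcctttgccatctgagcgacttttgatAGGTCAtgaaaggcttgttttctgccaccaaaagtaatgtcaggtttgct
Stat5a: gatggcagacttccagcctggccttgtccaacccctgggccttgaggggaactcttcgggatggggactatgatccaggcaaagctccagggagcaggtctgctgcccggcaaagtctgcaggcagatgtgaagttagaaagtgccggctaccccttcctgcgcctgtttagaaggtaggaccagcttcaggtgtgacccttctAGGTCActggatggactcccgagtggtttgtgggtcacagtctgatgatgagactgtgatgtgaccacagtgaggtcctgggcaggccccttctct
Ugt2b37: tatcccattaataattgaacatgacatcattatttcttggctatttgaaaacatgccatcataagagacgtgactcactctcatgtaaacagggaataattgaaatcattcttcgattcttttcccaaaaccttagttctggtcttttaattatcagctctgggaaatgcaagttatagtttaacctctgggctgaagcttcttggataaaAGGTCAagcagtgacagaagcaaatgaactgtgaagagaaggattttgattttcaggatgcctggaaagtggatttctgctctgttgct
Cyp3a25: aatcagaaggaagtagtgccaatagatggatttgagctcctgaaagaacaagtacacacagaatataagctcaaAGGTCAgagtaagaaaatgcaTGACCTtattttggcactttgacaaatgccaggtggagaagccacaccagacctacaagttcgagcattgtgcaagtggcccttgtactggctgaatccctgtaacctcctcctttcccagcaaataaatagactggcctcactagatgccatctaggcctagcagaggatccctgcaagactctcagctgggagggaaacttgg
Etnppl: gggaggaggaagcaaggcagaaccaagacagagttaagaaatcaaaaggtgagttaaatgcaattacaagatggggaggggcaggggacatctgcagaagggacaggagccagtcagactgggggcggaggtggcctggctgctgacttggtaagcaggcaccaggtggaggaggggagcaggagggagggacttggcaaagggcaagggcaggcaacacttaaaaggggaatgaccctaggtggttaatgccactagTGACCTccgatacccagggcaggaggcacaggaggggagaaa
The windows lie at chr4:107307119-107307418 for Dio1 (minus strand), chr13:58806319-58806618 for Ntrk2 (plus strand), chr7:143822917-143823216 for Dhcr7 (plus strand), chr11:100859406-100859705 for Stat5a (plus strand), chr5:87254739-87255038 for Ugt2b37 (minus strand), chr5:146009569-146009868 for Cyp3a25 (minus strand) and chr3:130617325-130617624 for Etnppl (plus strand). AGGTCA was in a window of 18.1% of all RefSeq genes, on either strand, and 15.6% of the tested genes that have an entry. Of the genes higher with resmetirom, 20 of 137 with an entry had it (14.6%), and of the genes lower, 28 of 159 (17.6%), so both shares were near that of all genes. The DR4 pair was in 0 of the windows of called genes, and in 4 of the 27025 RefSeq genes. These are matches of letters in a short window and say nothing of binding.

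Among the genes that fell, Oat, ornithine aminotransferase and a marker of hepatocytes around the central vein, had 94.6, 149.5 and 171 CPM in resmetirom livers, 619, 785 and 1228 CPM in MASH livers and 969.5, 1016 and 1016 CPM in control livers. The log2 fold change was -2.85 ± 0.32 (SE, adjusted p = 0.00349) against control and -2.66 ± 0.31 (SE, adjusted p = 0.0089) against MASH. Chpt1, which makes phosphatidylcholine, had 30.97, 57.1 and 57.97 CPM in resmetirom livers and 229, 169 and 172 CPM in control livers, and Uox, urate oxidase, 418, 360.4 and 550.1 CPM and 1193, 2054 and 1867 CPM in the same order. Their log2 fold changes were -1.96 ± 0.28 (SE, adjusted p = 0.00988) and -1.95 ± 0.27 (SE, adjusted p = 0.00988). Nox4, an oxidase that makes hydrogen peroxide, had 7.90, 12.5 and 10.2 CPM in resmetirom livers and 41.1, 33.8 and 34.7 CPM in control livers. For Nox4, the log2 fold change was -1.84 ± 0.24 (SE, adjusted p = 0.00802). Ugp2, which makes UDP-glucose for glycogen and glucuronides, fell to 123, 159.7 and 184 CPM in resmetirom livers, against 416, 379.7 and 355 CPM in control livers, and Akr1c14, a hydroxysteroid dehydrogenase, had a log2 fold change of -1.55 ± 0.24 (SE, adjusted p = 0.0115). For Oat, Chpt1, Uox, Nox4, Ugp2 and Akr1c14 the resmetirom and control livers did not overlap. Chpt1, Uox, Ugp2, Akr1c14 and Slc22a7 were named after their values were seen.

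Larger falls were seen in other genes. Etnppl, a phospholyase of ethanolamine phosphate, had 20.3, 4.42 and 6.25 CPM in resmetirom livers and 105, 106 and 113 CPM in control livers. For Etnppl, the log2 fold change was -3.37 ± 0.48 (SE, adjusted p = 0.0104). Aqp4, a water channel, had 1.04, 0.0749 and 0.871 CPM in resmetirom livers and 4.02, 7.06 and 7.21 CPM in control livers. The noncoding RNAs Hectd2os and Snhg11 and the acetyltransferase relative Nat8f7 had log2 fold changes of -5.71 ± 0.86 (SE, adjusted p = 0.0115), -5.73 ± 0.84 (SE, adjusted p = 0.0106) and -6.41 ± 1.09 (SE, adjusted p = 0.0157). Nat8f7 was at no more than 0.0513 CPM in any resmetirom liver, against 1.40 to 2.49 CPM in control livers. Cfd, the serine protease adipsin of the alternative complement pathway, had 0 counts in all 3 resmetirom livers, against 119 counts over the 3 control livers, so it was at least 43.8-fold lower on a floor of 3 counts over the group. It was at 16.5, 40.7 and 20.1 CPM in MASH livers. Its call was lost in 11 of the 12 left-out fits (adjusted p up to 0.0754, without control 3). Adipocyte markers, to which Cfd belongs, summed to 411.4 to 1605 CPM in resmetirom livers and 2239 to 2640 CPM in control livers. Of the 8 tested markers 1 was higher, Pnpla2, and 1 lower, Cfd itself. Their log2 fold changes were positive for 3 and negative for 5, with a median of -0.075, and of 0.22 without control 1. The sum gives most weight to abundant markers, so it does not show that the markers fell as a set. The part of adipocyte RNA in the Cfd result was not tested.

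The rule for the largest changes also named genes whose level was far higher in 1 resmetirom liver. Mup13 had 22.4, 859.8 and 33.7 CPM in resmetirom livers and 3.42, 4.86 and 2.54 CPM in control livers, and Mup9 had 3371, 60990 and 14480 CPM and 1144, 717 and 232 CPM in the same order, with resmetirom 2 highest for both. These genes are near-identical copies of each other, so their separate values are uncertain, and their calls were lost in 7 and 6 of the 12 fits that left out a library. Another family member moved the other way: Mup21 was at 1.58, 9.44 and 1.44 CPM in resmetirom livers and 132, 158 and 90.8 CPM in control livers, a log2 fold change of -4.98 ± 0.72 (SE, adjusted p = 0.0104) that held in all 12. Ceacam16 had 75 counts over the 3 resmetirom livers (highest in resmetirom 2, at 3.52 CPM), and 0 in control livers, which is at least 22.7-fold higher on the same floor, and its call was lost in 10 of the 12 left-out fits (adjusted p up to 0.0931, without control 2). Ces4a and Ptgds were likewise highest in resmetirom 2, at 122 and 23.7 CPM, and Gldn and Cdc20 in resmetirom 1, at 21.6 and 23.03 CPM. The calls of Ces4a, Ptgds, Gldn and Cdc20 were lost in 10, 8, 11 and 8 of the 12 fits, and those of Ces4a, Gldn and Cdc20 also without control 1 (adjusted p = 0.0603, 0.0594 and 0.0502).

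Of the list of thyroid hormone response genes, 35 were tested, of which 7 were higher and 0 lower with resmetirom. Over all tested genes 1.41% were higher and 1.75% lower, the shares to set beside this and the later list counts. The median log2 fold change of the list was 0.01, against 0.02 over all tested genes. The summed level of the list was 8966 to 15250 CPM in resmetirom livers, 18770 to 19900 CPM in MASH livers and 23470 to 24120 CPM in control livers. Abundant members weigh most in this sum, and its fall is not that of the typical member. The higher members were Dio1, Ucp2, Cyp17a1, Idh3a, Fgf21, Ccnd1 and Hr. Of the list, 1 gene was called against MASH, Idh3a. Ucp2, a carrier of the mitochondrial inner membrane, had 99.5, 59.8 and 62.5 CPM in resmetirom livers and 26.4, 24.8 and 23.2 CPM in control livers. For Ucp2, the log2 fold change was 1.58 ± 0.27 (SE, adjusted p = 0.0152). Idh3a, a subunit of an isocitrate dehydrogenase of the citric acid cycle, had 43.02, 69.7 and 57.9 CPM in resmetirom livers, 24.7, 28.6 and 26.9 CPM in MASH livers and 29.1, 25.7 and 25.6 CPM in control livers, and its log2 fold change was 1.08 ± 0.19 (SE, adjusted p = 0.0181). Cyp17a1, a steroid hydroxylase, had 68.3, 129 and 201 CPM in resmetirom livers, 29.6, 22.2 and 55.9 CPM in MASH livers and 2.31, 5.45 and 17.4 CPM in control livers. The calls of Fgf21, a hormone of the fasted liver, Ccnd1, cyclin D, and Hr, the corepressor hairless, were lost without control 1, and resmetirom 1 had the highest level of each. Fgf21 had 44.3, 6.07 and 15.3 CPM in resmetirom livers and 1.51, 1.56 and 1.62 CPM in control livers. Without control 1 the list had 4 higher of 36, 2 without control 2 or control 3, 4 without resmetirom 1, EE 3 or any one MASH liver, and 5 to 7 without the others. The calls of Ucp2, Cyp17a1 and Idh3a were lost in 1, 1 and 2 of the 12 fits, and those of Fgf21, Ccnd1 and Hr in 8, 10 and 10. Other known targets did not pass the test. Thrsp, a regulator of lipid synthesis, had 29.7, 500 and 376 CPM in resmetirom livers and 231, 566 and 386 CPM in control livers. The log2 fold changes of Me1, malic enzyme, Gpd2, a mitochondrial glycerol phosphate dehydrogenase, and Cpt1a, which brings fatty acids to mitochondria, were 0.69 ± 0.51 (SE, adjusted p = 0.454), 0.75 ± 0.44 (SE, adjusted p = 0.336) and 0.64 ± 0.47 (SE, adjusted p = 0.445). Those of Cyp7a1, the rate-limiting enzyme of bile acid synthesis, and Klf9, a transcription factor, were 0.68 ± 0.78 (SE, adjusted p = 0.648) and -0.89 ± 0.38 (SE, adjusted p = 0.193).

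In cholesterol synthesis 10 of 26 tested genes rose with resmetirom and 0 fell. Of the 26, 22 had a log2 fold change above 0, with a median of 1.10, against 0.02 over all genes. Their summed level was 5158, 5616 and 8105 CPM in resmetirom livers, 4932, 4710 and 4252 CPM in MASH livers, and 2579, 3693 and 4270 CPM in control livers. The sums of the resmetirom livers lay above those of all controls. The MASH sums did too for 2 of 3 livers. Mvk, mevalonate kinase, had 39.1, 71.9 and 74.4 CPM in resmetirom livers, 25.3, 28.3 and 22.2 CPM in MASH livers and 12.4, 15.9 and 22.2 CPM in control livers. For Mvk, the log2 fold change against control was 1.87 ± 0.28 (SE, adjusted p = 0.0114). Mvd, the decarboxylase of the mevalonate branch, had 32.7, 59.5 and 78.4 CPM in resmetirom livers, 41.6, 30.9 and 31.8 CPM in MASH livers and 15.98, 12.9 and 15.8 CPM in control livers. For Mvd, the log2 fold change against control was 1.93 ± 0.31 (SE, adjusted p = 0.0123). Dhcr7, which makes cholesterol in its last step, had 143, 259 and 274 CPM in resmetirom livers, 104, 114 and 115 CPM in MASH livers and 63.9, 91.95 and 90.5 CPM in control livers. Its log2 fold change against control was 1.46 ± 0.26 (SE, adjusted p = 0.0181). The calls of Mvk, Mvd and Dhcr7 held without any one of the 12 libraries.

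Fdft1, squalene synthase, and Nsdhl and Msmo1, which take methyl groups off the sterol ring, had log2 fold changes of 1.43 ± 0.26 (SE, adjusted p = 0.0181), 1.55 ± 0.28 (SE, adjusted p = 0.0181) and 1.53 ± 0.33 (SE, adjusted p = 0.0329). Sqle, squalene epoxidase, Lss, lanosterol synthase, and Cyp51, a sterol demethylase, had 1.45 ± 0.34 (SE, adjusted p = 0.0446), 1.26 ± 0.27 (SE, adjusted p = 0.0332) and 1.28 ± 0.29 (SE, adjusted p = 0.039). Srebf2, the transcription factor that drives this pathway when cell cholesterol is low, had 81.1, 82.6 and 105 CPM in resmetirom livers and 35.1, 41.2 and 52.5 CPM in control livers. For Srebf2, the log2 fold change was 1.06 ± 0.20 (SE, adjusted p = 0.0237). Hmgcs1, a synthase at the start of the pathway, did not pass with all libraries (adjusted p = 0.221) but did without control 1, with a log2 fold change of 1.45 (adjusted p = 0.0424). The calls of Fdft1, Nsdhl and Srebf2 were lost in 1, 2 and 2 of the 12 left-out fits, and those of Lss, Msmo1, Cyp51 and Sqle in 8, 9, 9 and 10. None of the 26 was called against MASH. Without control 1 the list had 11 higher and a median of 0.89. Over the 12 left-out fits it had from 3 (without control 2) to 11 higher members, falling to 7 without resmetirom 2, 5 without resmetirom 3, 7 without control 3 and 6 or 7 without any one MASH or EE liver.

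**Figure D3:**
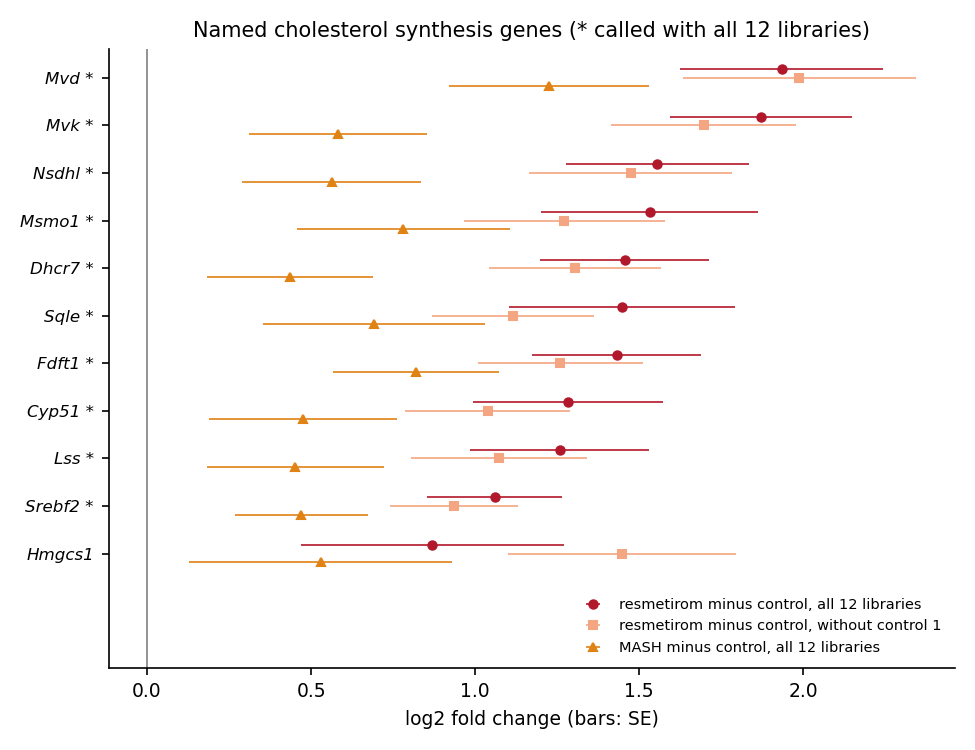
Log2 fold changes with SE (x axis) of 11 named genes of cholesterol synthesis, of 26 tested (y axis, ordered by the fold change with all 12 libraries) for resmetirom minus control with all libraries, the same without control 1, and MASH minus control; asterisks mark the 10 genes called. For the genes called, the resmetirom value lies above the MASH value.

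Genes that handle lipoproteins and stored fat moved singly. Of 26 lipoprotein genes 3 were higher (Apoa4, Sort1 and Scarb1) and 2 lower (Angptl8 among them), with a median of 0.00. Sort1, a sorting receptor that steers apolipoprotein B particles in hepatocytes, had 43.9, 44.5 and 58.8 CPM in resmetirom livers, 16.4, 19.7 and 11.9 CPM in MASH livers and 17.9, 21.5 and 16.7 CPM in control livers. The log2 fold change was 1.39 ± 0.24 (SE, adjusted p = 0.0152) against control and 1.62 ± 0.24 (SE, adjusted p = 0.0155) against MASH, and neither comparison had overlapping livers. Its call against control was lost in 1 of the 12 left-out fits, without control 3 (adjusted p = 0.0545). Apoa4, an apolipoprotein of large triglyceride-rich particles, had 2029, 539.9 and 1583 CPM in resmetirom livers, 1042, 1186 and 2031 CPM in MASH livers and 152, 128 and 186 CPM in control livers, so that resmetirom and MASH livers overlapped. Scarb1, the receptor for high-density lipoprotein, had a log2 fold change of 0.98 ± 0.21 (SE, adjusted p = 0.0324). Its call was lost in 10 of the 12 fits, and that of Apoa4 in 1, without control 2.

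Angptl8, a secreted regulator of lipoprotein lipase, had 4.82, 20 and 11.5 CPM in resmetirom livers, 17.03, 18.7 and 14.6 CPM in MASH livers and 268, 76.3 and 74.5 CPM in control livers. Control 1 was the highest liver, and without it the log2 fold change was -2.66 (adjusted p = 0.032), against -3.54 ± 0.69 (SE, adjusted p = 0.0247) with it. The call was lost without resmetirom 3 (adjusted p = 0.0561). Of 26 genes of fatty acid synthesis, Elovl1, an elongase of very long chains, was higher and Elovl6, an elongase of long chains, was lower, with log2 fold changes of 0.84 ± 0.19 (SE, adjusted p = 0.0421) and -1.03 ± 0.21 (SE, adjusted p = 0.0296), and Fasn, fatty acid synthase, did not pass (-0.35 ± 0.50 (SE, adjusted p = 0.725)). Both elongase calls were lost in 10 of the 12 fits, with adjusted p up to 0.105 for Elovl1 and 0.0817 for Elovl6. Of 34 genes of fatty acid oxidation 1 was higher, Fgf21, described above. Of 24 genes of lipid droplets and lipid uptake, Pnpla2, the main triglyceride lipase, was higher with 89.8, 147 and 113 CPM in resmetirom livers and 45.9, 57.5 and 62.98 CPM in control livers, and Vldlr, a lipoprotein receptor, was lower at 0.410 CPM or less in resmetirom livers, against 1.10 to 3.42 CPM in control livers. Neither of these calls held without control 1 (adjusted p = 0.0622 and 0.0607), and over the left-out fits they were lost in 11 and 12 of 12. Plin4, a droplet coat protein, did not pass with all libraries (adjusted p = 0.0544) but did without control 1, with a log2 fold change of -2.39 (adjusted p = 0.0434). It was also lower against MASH (-3.37 ± 0.56 (SE, adjusted p = 0.0245)).

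In drug metabolism 6 of 38 tested cytochrome P450 genes fell and 0 rose. Of the 38, 31 had a negative log2 fold change, and the median was -0.89, against 0.02 over all genes. Cyp2c23, an arachidonic acid epoxygenase, had 63.1, 33.04 and 24.8 CPM in resmetirom livers, 144, 189 and 135 CPM in MASH livers and 676, 316 and 328 CPM in control livers, with a log2 fold change of -3.45 ± 0.42 (SE, adjusted p = 0.00542) against control and -1.95 ± 0.39 (SE, adjusted p = 0.0498) against MASH. Cyp3a25 had 104, 135 and 205 CPM in resmetirom livers and 732, 429.6 and 503 CPM in control livers. For Cyp3a25, the log2 fold change was -1.90 ± 0.29 (SE, adjusted p = 0.0115). The levels in resmetirom livers were below all controls for both. Cyp2c55 had 2.27, 1.12 and 0.923 CPM in resmetirom livers, 0.946, 1.13 and 0.820 CPM in MASH livers and 6.23, 9.89 and 8.73 CPM in control livers. For Cyp2c55, the log2 fold change against control was -2.50 ± 0.36 (SE, adjusted p = 0.0106). Cyp3a11, an inducible drug oxidase, had 946, 98.7 and 134 CPM in resmetirom livers, 677, 350 and 369 CPM in MASH livers and 2214, 4025 and 3955 CPM in control livers. For Cyp2c55 and Cyp3a11 the MASH livers overlapped the resmetirom livers and were below all controls. Cyp2c29 and Cyp2a5 had log2 fold changes of -3.46 ± 0.79 (SE, adjusted p = 0.04) and -2.03 ± 0.47 (SE, adjusted p = 0.0414), and in Cyp2c29 control 1 lay within the range of the resmetirom livers. Members of the Cyp2c and Cyp3a clusters are close copies, so counts may be shared among them. The call of Cyp2c23, Cyp3a25 and Cyp2c55 held without any one library. Those of Cyp2c29, Cyp2a5 and Cyp3a11 were each lost in 10 of the 12 fits, for Cyp2a5 also without control 1 (adjusted p = 0.0579). The list had 3 lower members without resmetirom 2, control 2, control 3, MASH 2 or any EE liver, and 7 of 40 without control 1.

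Of 46 conjugating enzymes and carboxylesterases, 2 were higher and 6 lower, with a median of -0.37, and without control 1, 2 were higher and 10 lower. Gsta2, a glutathione transferase, had 8.67, 3.45 and 3.38 CPM in resmetirom livers, 7.90, 4.60 and 10.3 CPM in MASH livers and 56.7, 25.8 and 32.5 CPM in control livers, a log2 fold change of -2.87 ± 0.44 (SE, adjusted p = 0.0115) against control. The carboxylesterase Ces1f had 29.8, 10.8 and 91.1 CPM in resmetirom livers, 338, 357 and 406 CPM in MASH livers and 223, 429 and 478 CPM in control livers. For Ces1f, the log2 fold change was -3.10 ± 0.61 (SE, adjusted p = 0.0255). Ces1b and Ces1e, the glucuronosyltransferase Ugt2b34 and the sulfotransferase Sult1b1 had log2 fold changes of -1.62 ± 0.32 (SE, adjusted p = 0.0265), -1.66 ± 0.34 (SE, adjusted p = 0.029), -0.82 ± 0.18 (SE, adjusted p = 0.0376) and -1.50 ± 0.35 (SE, adjusted p = 0.0438). The higher members were another glucuronosyltransferase, Ugt2b37, with 14.6, 41.1 and 5.79 CPM in resmetirom livers and 0.201, 1.18 and 0.761 CPM in control livers (4.70 ± 0.72 (SE, adjusted p = 0.0115)), and Sult5a1, with 21.2, 54.99 and 18.7 CPM and 9.25, 5.20 and 1.88 CPM in the same order. Of the 8 called members the calls of Gsta2 and Ugt2b37 held without any one library. Those of Ces1b and Ces1f were lost in 1 and 3 of the 12 fits, and those of Ces1e, Sult5a1, Sult1b1 and Ugt2b34 in 8, 9, 9 and 10. The list had 2 lower members without control 2 or control 3 and 3 without MASH 1, MASH 2, EE 2 or EE 3. Ces1 and Ugt2b genes lie in clusters of close copies.

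Of the genes that fell, Oat, Ces1f and Cyp2c29 are markers of pericentral hepatocytes. That marker list summed to 3052, 9968 and 10290 CPM in resmetirom livers, with resmetirom 1 lowest. The sums were 12520, 14040 and 15860 CPM in MASH livers and 10200, 13330 and 14560 CPM in control livers. Of its 25 tested genes 0 were higher and 3 lower, and the median log2 fold change was -0.28, against -0.02 for MASH minus control. Periportal markers summed to 12020 to 16150 CPM in resmetirom livers, 9994 to 14850 CPM in MASH livers and 15860 to 18300 CPM in control livers, with 2 of 17 lower. In bulk tissue, fewer cells of a type and less RNA per cell cannot be told apart, and the part of such a shift in the lower drug-metabolism genes was not tested.

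Abcc3, the basolateral pump for bile acids and glucuronides, had 31.8, 4.50 and 19.4 CPM in resmetirom livers, 246, 254 and 367 CPM in MASH livers and 119.6, 272 and 281 CPM in control livers. The log2 fold change was -3.59 ± 0.59 (SE, adjusted p = 0.0138) against control and -3.95 ± 0.60 (SE, adjusted p = 0.0155) against MASH, and the call held without any one library. It was the only one of 24 genes of bile acid synthesis and transport to be called with all libraries. Without control 1, Slc51b, a subunit of the basolateral bile acid exporter, was higher, with 2.12, 7.57 and 2.56 CPM in resmetirom livers and 1.10, 0.0846 and 0.0508 CPM in control livers, and Slco1b2, an uptake transporter, was lower, with 174, 213 and 378 CPM and 270, 768 and 733 CPM in the same order. Control 1 was the control nearest to the resmetirom livers for Slc51b and lay within their range for Slco1b2.

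In amino acid metabolism 1 of 45 genes was higher and 2 were lower, against 1.41% and 1.75% of all tested genes. The median of the list was -0.08. The higher gene was Psat1, of serine synthesis, and the lower ones were Oat and Cth, which makes cysteine. Psat1 was highest in resmetirom 1, with 13.8, 2.47 and 1.28 CPM in resmetirom livers and 0.101, 0.465 and 0.304 CPM in control livers, and its call was lost in 4 of the 12 fits. Cth had 141, 196 and 150.3 CPM in resmetirom livers, 224, 172 and 180.3 CPM in MASH livers and 258, 402 and 430 CPM in control livers. For Cth, the log2 fold change against control was -1.16 ± 0.24 (SE, adjusted p = 0.029). This call was lost in 7 of the 12 left-out fits (adjusted p up to 0.083, without control 3). Irs2, an adaptor of the insulin receptor, was the 1 called gene of 25 in gluconeogenesis and insulin signalling, with 18.9, 23.8 and 21.99 CPM in resmetirom livers, 11.3, 9.66 and 9.25 CPM in MASH livers and 9.55, 12.9 and 7.87 CPM in control livers. For Irs2, the log2 fold change was 1.09 ± 0.21 (SE, adjusted p = 0.0255). Its call was lost without resmetirom 2 or control 3.

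In the growth hormone axis, Stat5a, a transcription factor that growth hormone activates, had 23.7, 27.9 and 29.8 CPM in resmetirom livers, 16.3, 11.6 and 14.6 CPM in MASH livers and 9.14, 8.50 and 7.66 CPM in control livers. For Stat5a, the log2 fold change was 1.69 ± 0.26 (SE, adjusted p = 0.0115). The 3 groups did not overlap. Ghr, the growth hormone receptor, had 113, 208 and 191 CPM in resmetirom livers and 303, 409.5 and 353 CPM in control livers. For Ghr, the log2 fold change was -1.06 ± 0.25 (SE, adjusted p = 0.0438). This call was lost in 11 of the 12 left-out fits (adjusted p up to 0.106, without control 2). Igfbp2, a binding protein of insulin-like growth factors, did not pass with all libraries (adjusted p = 0.0759) but did without control 1 (adjusted p = 0.0296) or without resmetirom 3, with 723, 929 and 449 CPM in resmetirom livers, 164, 149 and 146 CPM in MASH livers and 469.8, 269.9 and 269.9 CPM in control livers.

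Growth hormone is also known to set the sex bias of liver genes in mice. Of 20 female-biased genes tested, 4 were higher with resmetirom and 0 lower: Ntrk2, Cyp17a1, and the organic anion transporters Slc22a27 and Slc22a29. Slc22a27 had 24.5, 1.87 and 16.7 CPM in resmetirom livers, 5.77, 1.72 and 6.52 CPM in MASH livers and 0.101, 0.676 and 0.660 CPM in control livers, and Slc22a29 had log2 fold changes of 3.15 ± 0.74 (SE, adjusted p = 0.0436) against control and, for MASH minus control, 2.18 (adjusted p = 0.51). Of 43 male-biased genes, 2 were higher and 3 lower (Nox4, Mup21 and C8a). C8a, a component of the complement attack complex, had 204, 217 and 189 CPM in resmetirom livers and 458, 580.4 and 499 CPM in control livers. The calls of C8a, Slc22a27 and Slc22a29 were lost in 2, 3 and 10 of the 12 fits. Over the left-out fits the female-biased list had 1 higher member without control 2, 2 without control 3 or EE 3, and 3 or 4 without any other library. The median over its 20 genes was 0.37, and without control 1 it was 0.13 over 22 genes. In the full fit the median was 0.66 for MASH minus control and -0.39 for resmetirom minus MASH. Of the list, 2 genes were called against MASH.

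Among 24 clock genes 0 were higher and 2 lower, 20 had a negative log2 fold change, and the median was -0.56. Bhlhe41, a repressor of the clock, had 0.385, 0.375 and 0.615 CPM in resmetirom livers, 0.662, 3.18 and 1.95 CPM in MASH livers and 3.32, 9.05 and 7.76 CPM in control livers. For Bhlhe41, the log2 fold change was -3.86 ± 0.60 (SE, adjusted p = 0.0115). Rora, a nuclear receptor that activates clock genes, had -1.12 ± 0.27 (SE, adjusted p = 0.0446), and its call was lost in 11 of the 12 left-out fits (adjusted p up to 0.0909, without control 3). Klf10, a growth-factor-induced repressor with a daily rhythm in liver, had 5.35, 13.5 and 10.3 CPM in resmetirom livers, 9.74, 19.7 and 12.6 CPM in MASH livers and 43.01, 55.4 and 40.5 CPM in control livers. For Klf10, the log2 fold change was -2.26 ± 0.34 (SE, adjusted p = 0.0115), and it was named after its values were seen.

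Of 38 interferon-stimulated genes tested, 4 rose and 0 fell. Of the 38, 32 had a log2 fold change above 0, with a median of 0.73; without control 1, 9 were higher and the median was 0.65. Tap1, the peptide transporter of antigen presentation, had 33.5, 27.8 and 30.96 CPM in resmetirom livers, 24.4, 23.9 and 35.7 CPM in MASH livers and 13.6, 16.8 and 14.9 CPM in control livers. For Tap1, the log2 fold change was 1.03 ± 0.19 (SE, adjusted p = 0.0207). Ifi27 had 162, 169 and 123 CPM in resmetirom livers, 76.8, 97.9 and 80.1 CPM in MASH livers and 50.8, 68.1 and 75.8 CPM in control livers. For Ifi27, the log2 fold change was 1.22 ± 0.23 (SE, adjusted p = 0.0219). Neither gene had resmetirom livers within the control range, and for Tap1 the MASH livers overlapped the resmetirom livers. Dhx58, a sensor of viral RNA, and Oas1a, which makes a messenger that activates RNA decay, had log2 fold changes of 1.05 ± 0.22 (SE, adjusted p = 0.0291) and 1.83 ± 0.38 (SE, adjusted p = 0.0291). The calls of Tap1, Ifi27, Oas1a and Dhx58 were lost in 1, 1, 5 and 8 of the 12 fits. Without control 2 or control 3, 1 member of the list was called, and 2 were without MASH 2, EE 2 or EE 3.

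Of 11 tested markers of B and plasma cells, 1 was higher with all libraries, Ighm, and 4 of 12 were without control 1. Ighm, the heavy chain of immunoglobulin M, had 12.6, 128 and 101 CPM in resmetirom livers, 6.91, 4.64 and 7.07 CPM in MASH livers and 15.2, 6.59 and 5.63 CPM in control livers; its log2 fold change was 3.16 ± 0.70 (SE, adjusted p = 0.0382), and control 1 lay above resmetirom 1. Its call was lost in 10 of the 12 left-out fits (adjusted p up to 0.0976, without control 3). Igha and Igkc were called without control 1, with log2 fold changes of 2.91 (adjusted p = 0.032) and 2.63 (adjusted p = 0.0177). Igkc had 22.3, 22.2 and 7.79 CPM in resmetirom livers, 2.46, 1.72 and 1.76 CPM in MASH livers and 28.7, 2.66 and 2.94 CPM in control livers. The 14 markers of B and plasma cells, to which these genes belong, summed to 97.1 to 183 CPM in resmetirom livers, 11.8 to 16.2 CPM in MASH livers and 15.2 to 81.9 CPM in control livers, and the highest control was control 1. With all libraries, none of the marker lists of Kupffer cells, other macrophages, T and NK cells, endothelium and stellate cells had a called member, and Kupffer cell markers summed to 1215, 471.2 and 666.9 CPM in resmetirom livers and 152.2, 573.5 and 520.4 CPM in control livers. Apart from resmetirom 1 and control 1 these sums overlapped. The median log2 fold change of the Kupffer cell list was 0.97 with control 1 and 0.48 without it. Other medians were larger without control 1: 0.96 and then 1.21 for monocytes and infiltrating macrophages, and 0.76 and then 1.46 for lipid-associated macrophages. For dendritic cells and MHC class II the median was 0.93 with control 1 and 1.075 without it. None of these lists had a called member either way. The lipid-associated macrophage markers Trem2 and Gpnmb were high in resmetirom 1 alone among the resmetirom livers, at 11.6 and 43.0 CPM, and did not pass (adjusted p = 0.0686 and 0.0753).

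The cell cycle list had the largest median of the functional lists, 2.12 over 35 tested genes, with 6 higher and 0 lower. Its level came mainly from 1 liver: the summed level was 496.8, 169.1 and 175.7 CPM in resmetirom livers and 100.1, 118.7 and 114.7 CPM in control livers. Cdc20, an activator of mitotic exit, had 23.03, 2.55 and 1.38 CPM in resmetirom livers and 0, 0.211 and 0.304 CPM in control livers, and Plk1, a mitotic kinase, 7.86, 1.42 and 0.410 CPM and 0, 0.211 and 0.152 CPM in the same order. The calls of Cdc20, Plk1 and Mcm7 were lost in 8, 11 and 10 of the 12 fits. Without resmetirom 1, 0 of the list were called by edgeR. Without control 1, 1 was called, Mcm7, a subunit of the replicative helicase, with 14.9, 15.96 and 12.2 CPM in resmetirom livers and 9.25, 7.91 and 8.98 CPM in control livers. The count was also 0 without control 2, control 3, MASH 2 or any one EE liver, 1 without MASH 1 or MASH 3, and 12 without resmetirom 3. Of 42 genes of the extracellular matrix 37 had a positive log2 fold change, with a median of 0.82, but 0 were called higher and 1, Col5a3, was lower (-2.49 ± 0.48 (SE, adjusted p = 0.0231)), a call lost without resmetirom 2. Col1a1, the main fibrillar collagen, had 90.4, 9.14 and 7.54 CPM in resmetirom livers and 11.3, 7.78 and 8.58 CPM in control livers, and only resmetirom 1 was above all controls; its log2 fold change of 1.97 ± 0.76 (SE, adjusted p = 0.151) did not pass the test.

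Other genes that the naming rule took moved one by one. Enho, which encodes the secreted peptide adropin, had 31.8, 91.6 and 33.98 CPM in resmetirom livers, 3.78, 8.74 and 4.92 CPM in MASH livers and 14.9, 7.27 and 8.48 CPM in control livers. For Enho, the log2 fold change was 2.37 ± 0.50 (SE, adjusted p = 0.0305). Orm1, an acute-phase plasma protein, and Aox1, an aldehyde oxidase, had log2 fold changes of -1.93 ± 0.47 (SE, adjusted p = 0.0478) and -1.24 ± 0.25 (SE, adjusted p = 0.0259). Hsd17b6, a hydroxysteroid dehydrogenase and periportal marker, had 30.9, 6.22 and 13.5 CPM in resmetirom livers and 240.1, 104 and 87.7 CPM in control livers (-3.08 ± 0.56 (SE, adjusted p = 0.0188)), and its call held without any one library. The chemokine Cxcl14 had 31.6, 21.8 and 1.64 CPM in resmetirom livers and 1.71, 1.35 and 1.73 CPM in control livers, which overlapped, and the sodium-glucose cotransporter Slc5a1, a cholangiocyte marker here, had a log2 fold change of 2.74 ± 0.60 (SE, adjusted p = 0.0349). The calls of Enho, Aox1, Slc5a1, Cxcl14 and Orm1 were lost in 4, 4, 8, 10 and 11 of the 12 fits, for Orm1 also without control 1 (adjusted p = 0.0716).

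The 442 called genes were sorted into those still apart from chow as in untreated MASH and those new or mostly new with the drug. For this, the log2 fold change of MASH minus control was divided by that of resmetirom minus control. Both comparisons use the same 3 controls, so the ratio is no independent evidence, and only 2 genes, Cyp2c55 and Glcci1, were called between MASH and control. The ratio was 0.5 or more for 110 genes (44 higher and 66 lower) and below 0.5 for 332 (153 higher and 179 lower), of which 46 had the opposite sign in MASH; 111 genes lay between 0.4 and 0.6. Without control 1, 87 of the 110 and 267 of the 332 were still called. Against MASH livers 93 genes were called (0.665% of those tested), 47 higher and 46 lower, and 64 of them were among the 442. These 64 are 14.5% of the calls against control and 68.8% of the calls against MASH.

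The genes with the largest change among those at a ratio of 0.5 or more were Snhg11, Pkp1, Slc22a27, Myom3, Kifc1 and Cntnap1. Cntnap1, an adhesion protein of the contactin partner family, had 18.9, 1.72 and 11.8 CPM in resmetirom livers, 3.88, 9.41 and 15.7 CPM in MASH livers and 0.704, 0.507 and 0.863 CPM in control livers. The resmetirom and MASH livers overlapped, as they did for Apoa4, Cyp2c55, Cyp3a11, Angptl8 and Gsta2. The calls of Cntnap1, Myom3, Kifc1 and Pkp1 were lost in 2, 3, 8 and 10 of the 12 fits. Glcci1, a glucocorticoid-induced transcript, had 0.616, 1.05 and 0.564 CPM in resmetirom livers, 0.0946, 0.126 and 0.0781 CPM in MASH livers and 3.12, 2.28 and 1.57 CPM in control livers, so that resmetirom livers lay between the other groups: its log2 fold change was -1.65 ± 0.40 (SE, adjusted p = 0.0478) against control and 2.80 ± 0.49 (SE, adjusted p = 0.0275) against MASH. Its call against control was lost in 12 of the 12 left-out fits (adjusted p up to 0.102, without resmetirom 3). It was the 1 gene of the 64 whose sign differed between the comparisons.

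Among genes with a ratio below 0.5, the rule named Cfd, Ceacam16, Wfdc16, Nat8f7, Mup13 and Gldn. Such a ratio does not mean that MASH livers were like controls. Nat8f7, Bhlhe41 and Cyp2c23 had MASH minus control of -1.92, -1.80 and -1.49 on the log2 scale, though uncalled. Ntrk2, Tff3, Slc22a7, Sort1, Irs2, Idh3a, Oat, Chpt1, Ugp2, Uox, Nox4, Abcc3, Ces1f and Mup21 had MASH minus control between -0.40 and 0.92 on the log2 scale, and all 14, picked here for that after their values were seen, were also called against MASH. Among them, Ugp2 had 369.7, 370.3 and 405 CPM in MASH livers, Chpt1 194, 226 and 178 CPM and Nox4 32.6, 39.3 and 23.7 CPM. Of the 78 genes that kept their call in every left-out fit, 62 had a ratio below 0.5 and 16 had one of 0.5 or more.

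**Figure D4:**
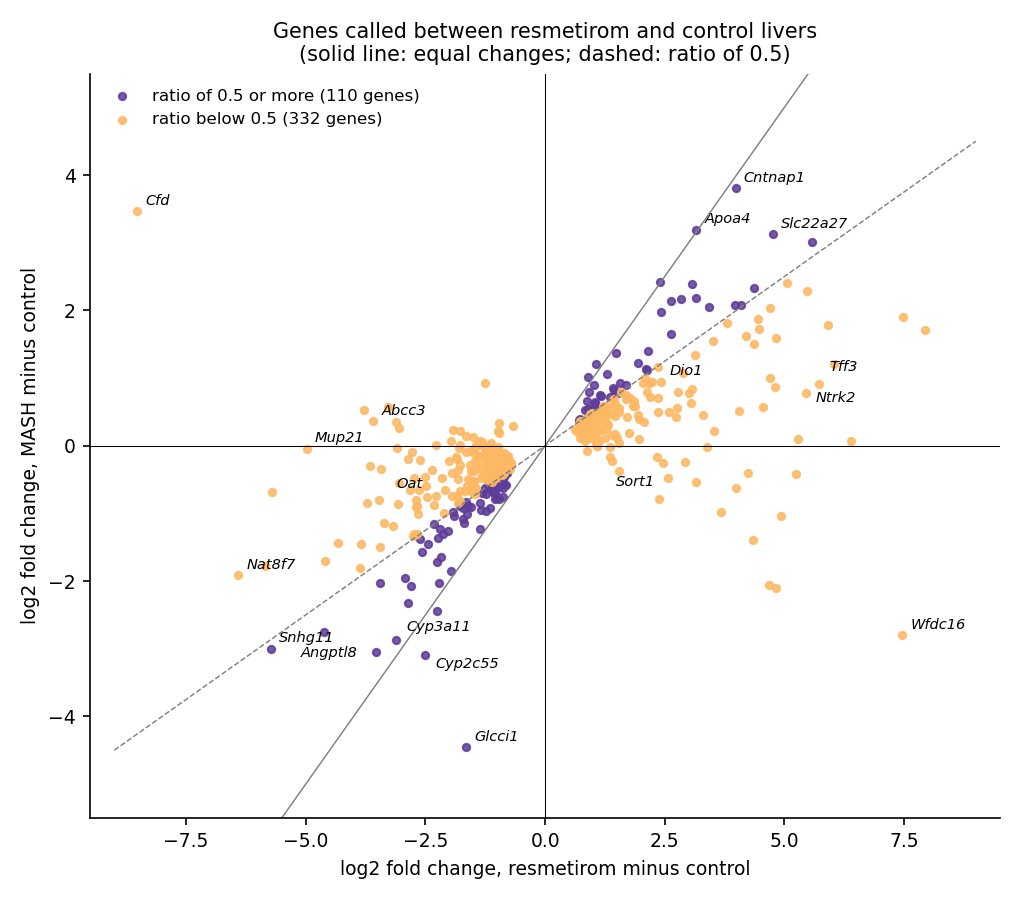
Log2 fold change of MASH minus control (y axis) against resmetirom minus control (x axis) for the 442 genes called between resmetirom and control livers; both use the same controls. The 110 purple genes have a ratio of 0.5 or more and the 332 yellow genes a smaller one, and Ntrk2, Tff3 and Wfdc16 on the right and Cfd, Mup21 and Oat on the left lie far from the line of equal change.

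Of the 442 genes, 354 were also called without control 1 (158 higher and 196 lower), which is 80.1% of the calls with it and 51.8% of the calls without it, and no called gene changed sign. The 88 called only with control 1 comprised 39 higher and 49 lower genes, and 330 were called only without it. In 46 of the 442 genes control 1 lay more than 2-fold above or below both other controls, after a small constant was added to each level. Of these 46, 40 kept their call without control 1. The largest rises called by edgeR without control 1 and not with all libraries included Slc51b, Igha, Igkc and Loxl1, a cross-linker of elastin, and the largest falls included Zbtb16, a glucocorticoid-induced repressor, Plin4 and Tdo2, which degrades tryptophan. Zbtb16 had 4.58, 8.02 and 1.54 CPM in resmetirom livers and 7.44, 24.99 and 31.4 CPM in control livers, and Tdo2 had 337, 301 and 570.5 CPM and 319.8, 1255 and 1304 CPM in the same order. For Zbtb16 and Tdo2 control 1 lay inside the range of the resmetirom livers. The 13 mitochondrially encoded genes had a median log2 fold change of -2.55 with control 1 and of 0.01 without it, and 0 were called either way by edgeR; 0 of the 35 tested nuclear genes of oxidative phosphorylation were called too, with a median of 0.28.

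**Figure D5:**
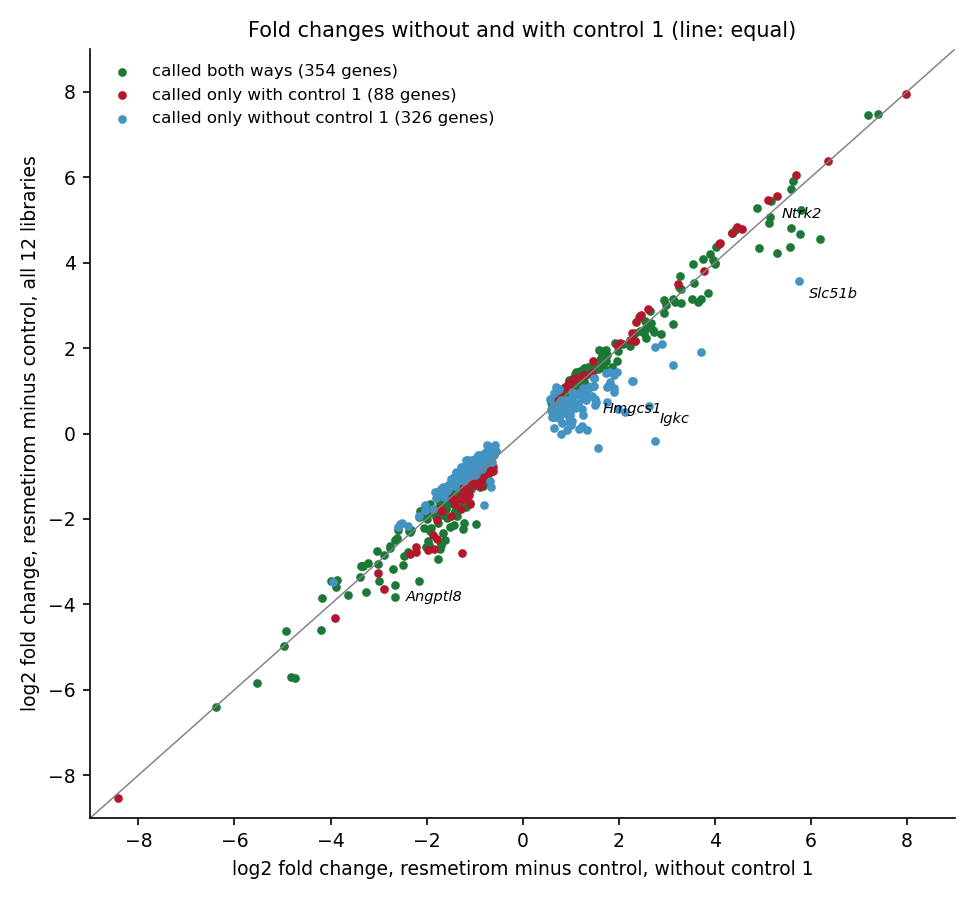
Log2 fold change of resmetirom minus control without control 1 (x axis) and with all 12 libraries (y axis) for genes called in either fit; the line marks equal values. Green genes (354) were called both ways, red genes (88) only with control 1 and blue genes (326 tested both ways) only without it; Slc51b, Igkc and Hmgcs1 lie below the line and Angptl8 has a larger fall with control 1.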

How the data were processed

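RNA from 12 livers was sequenced as stranded mRNA libraries, per the labels' protocols, with fastp and the mouse build GRCm39 named in the submitters' processing notes; the sources used here do not give the aligner, the counter or the strand setting. The values are expected counts per gene, as the authors deposited them; the labels state no further step. They were rounded to whole numbers and were tested with edgeR 4.0.16 (R 4.3.3): filterByExpr by group, TMM scaling, and a robust quasi-likelihood fit over all 12 libraries in 4 groups, with Benjamini-Hochberg adjusted p below 0.05 as a call. Every adjusted p in the text is from this test. SE is the log2 fold change divided by the square root of F. The fit was tested on simulated data. Alternatives used DESeq2 1.42.0 and limma 3.58.1.

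Genes were named by rule: up to 15 highest and 15 lowest among non-overlapping genes with at least 1 CPM in the higher group, up to 10 each way of those called only without control 1, 6 each for ratios of 0.5 or more and below, up to 4 per list, and fixed genes. Further called members of a list, and genes marked so in the text, were named after their values were seen. The 49 lists (31 functional, 18 of markers, 1073 of 1083 symbols found) and the comparison were chosen with earlier results of these data known. Promoter windows are from RefSeq, GRCm38.p6. Some genes are not reported here.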

Additional observations from a re-analysis of the deposited data

How the results depend on the processing

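Of the 102 named genes that were called, 30 kept their call in all 12 fits without 1 library, and 0 changed sign under any of 27 settings. Of the 21 that were not called, 2 changed sign without resmetirom 1, to log2 fold changes of 0.15 (Thrsp) and -0.13 (Col1a1). Over the 12 left-out fits Thrsp ranged between -0.95 and 0.15 and Col1a1 between -0.13 and 2.45.

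The 442 genes against control, 684 without control 1 and 93 against MASH became 1560, 1952 and 657 with DESeq2, 2136, 2067 and 834 with limma voom and quality weights, and 37, 75 and 38 with no scaling factors. Without scaling factors, the median log2 fold change of all genes against control was 0.22, against 0.02 with them, so values there are relative to a shift. Without control 1, 21 of the 75 calls were then higher and 54 lower, whereas 39.9% were higher with scaling factors. With no filter on low counts, 2028 genes were called without control 1 and 243 against MASH. A minimum of 2-fold left 428 without control 1. With only the 2 compared groups, 5, 2 and 0 were called by edgeR (1568, 1915 and 1935 at an unadjusted p below 0.05), and 2 against control when control 1 was also left out. With control 1 and resmetirom 2 left out together, 1059 were called against control and 467 against MASH. Leaving out 1 library at a time gave 127 to 684 against control, 1 to 2555 without control 1 and 1 to 431 against MASH. The cause was not tested. Other scalings, voom, a filter of 1 CPM and removal of mitochondrial genes kept each count within 1.5 times.

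Replicate numbers are shared by the groups. Same-numbered resmetirom and control deviations from the group mean correlated at -0.289, -0.341 and 0.2603, and others at -0.4836 to 0.4769. Deviations from a mean of 3 livers are tied to each other, so these values cannot show whether the numbers pair the livers. With a replicate block the counts were 327, 950 and 112, and with the block and only the 2 compared groups 0 (919 at an unadjusted p below 0.05), 348 and 27.

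Resmetirom 1 and resmetirom 2 correlated at 0.9029 on log2 CPM, below resmetirom 1 with any MASH liver (0.9337 to 0.9406). With 3 livers a group and unequal libraries on both sides, a missing call does not show that a gene was alike.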
